A study of Mus musculus with 4 samples.

Results

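Caveolae are flask-shaped pits of the plasma membrane that carry cargo across endothelial cells, a route called transcytosis. Caveolins form the coat inside the membrane, cavins bind it from the cytoplasm and EHD2 sits at the neck of the pit. In brain endothelium this route is held low as part of the blood-brain barrier, and PLVAP, the protein of the diaphragms that close fenestrae and caveolae, is normally scarce there outside vessels that lack a barrier. The genes described here are the 7 of this route: the caveolins Cav1 and Cav2, the cavins Cavin1, Cavin2 and Cavin3, the neck ATPase gene Ehd2 and the diaphragm gene Plvap. They were chosen by symbol out of 32285 genes, and all 7 were in the gene table of every library.

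Single cells had been sequenced with 10x 3' chemistry from 10-month-old male C57BL/6N mice, taking the infarct core with about 2 mm of cortex around it. Mice had either sham surgery with an isotype control antibody or distal middle cerebral artery occlusion (dMCAO, a cortical stroke) followed by the same control, an antibody to VCAM1 or one to VLA4, and antibody was given for 10 weeks in all 4 groups. VCAM1 is an adhesion molecule of activated endothelium and VLA4 is its leukocyte receptor. Tissue of 4 to 5 mice was pooled into 1 library per group, so no test between groups was possible, every interval below covers counting error only, and sham had no antibody-blocked counterpart.

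After filtering, the libraries held 1514, 2832, 4657 and 6209 cells in the order sham, stroke isotype, anti-VCAM1, anti-VLA4, of which 549, 648, 2377 and 3052 were endothelial-like. The median endothelial-like cell had 3789 to 4372 UMIs, and the libraries held 2518319 to 15856772 endothelial UMIs. Cells had been stained for CD31 and CD45, which can set these numbers, and 78 of 15465 barcodes occurred in more than 1 library. The 14 endothelial markers by which these clusters were named summed to 37846 to 42692 CPM (UMIs of a gene per 1000000 UMIs of the summed cells) in these cells. The 12 microglia markers summed to 118, 600, 224 and 219 CPM there, highest in stroke with isotype, with no marker at 0. The 11 pericyte markers summed to 129, 128, 241 and 242 CPM, higher in both blockade libraries, with 2, 1, 0 and 0 at 0. The part of the pericyte markers in the results below was not tested. The class also held sub-cluster 11 (31 cells, led by microglia genes such as C1qa and P2ry12) and sub-cluster 12 (11 cells, led by haemoglobin genes), and values without both are given beside the results they touch. Endothelial-like cells were divided into arterial-like (2114 cells), capillary-like (3241) and venous-like (772), and the 7 genes were left out of the clustering. In the venous-like cells different sub-clusters prevailed: sub-cluster 10 gave 44 of 62 in sham, while sub-cluster 6 gave 39 of 72, 218 of 255 and 331 of 383 in the 3 stroke libraries.

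Start-region sequence of 5 of the 7 genes was at hand from RefSeq (GRCm38.p6). The 250 bases before the first listed start are shown for Cav1, the defining caveolin, for Cavin2, a cavin with a higher level under both blockades, and for Ehd2, which alone was at the endothelial level in pericyte-like cells. Capitals mark the ETS core GGAA (or TTCC) and the SOX core ACAAT (or ATTGT), searched on both strands because ETS and SOX factors direct endothelial transcription. Adjoining capitals belong to overlapping matches.
Cav1: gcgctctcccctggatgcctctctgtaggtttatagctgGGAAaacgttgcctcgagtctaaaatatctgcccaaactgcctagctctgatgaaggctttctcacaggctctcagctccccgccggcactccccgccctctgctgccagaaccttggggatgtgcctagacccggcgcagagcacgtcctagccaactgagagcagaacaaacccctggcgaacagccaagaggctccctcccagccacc
Cavin2: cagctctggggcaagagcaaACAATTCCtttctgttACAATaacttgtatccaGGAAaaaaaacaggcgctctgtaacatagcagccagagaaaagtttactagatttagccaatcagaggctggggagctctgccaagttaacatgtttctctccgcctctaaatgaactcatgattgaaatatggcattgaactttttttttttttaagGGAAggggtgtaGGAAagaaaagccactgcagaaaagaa
Ehd2: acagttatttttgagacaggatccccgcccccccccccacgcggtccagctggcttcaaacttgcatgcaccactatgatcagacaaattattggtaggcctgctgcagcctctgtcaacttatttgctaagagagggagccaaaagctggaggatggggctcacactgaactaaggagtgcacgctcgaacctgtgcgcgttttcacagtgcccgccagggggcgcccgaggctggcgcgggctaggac
These lie at chr6:17306085-17306334 (plus strand), chr1:51288876-51289125 (plus) and chr7:15967536-15967785 (minus). Cavin2 held 4 ETS and 2 SOX cores, Cav1 held 1 ETS core and no SOX core, and Ehd2 held neither. Of 27025 genes' windows of this length, 93.4% held an ETS core and 28.3% a SOX core. Cavin1 and Cav2 held 5 and 3 ETS cores and no SOX core.

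The caveolar genes were far higher in endothelial-like than in microglia-like cells. Cav1 reached 281 CPM (275 to 287) in endothelial-like cells of all libraries summed, 79.1 in the 102 astrocyte-like cells and 1.27 in the 6446 microglia-like cells. Cavin2 reached 557 CPM against 1.11 in microglia-like cells, and Ehd2 112 against 0.290. With each cell thinned to 1000 UMIs, 21.4% to 25.04% of endothelial-like cells had a Cav1 UMI in the 4 libraries (56.3% to 59.9% unthinned), against 0% to 0.330% of microglia-like cells, whose median depths were 5192 to 7342 UMIs. Shallower cells were left out, 16, 37, 78 and 81 of the endothelial-like and 3, 36, 25 and 37 of the microglia-like. Thinned shares were 32.6% to 41.5% for Cavin2, 10.7% to 15.6% for Cavin3 and 9.01% to 11.5% for Ehd2. For all 6 caveolar genes the endothelial-like share exceeded the microglia-like share in all 4 libraries. Sums over libraries weigh the 2 blockade libraries most, and levels of different genes are not ranked because 3' counts are not comparable between genes.

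After stroke no caveolar gene differed from sham by as much as 1.5-fold. Cav1, the scaffold without which endothelial caveolae do not form, stood at 294 CPM in sham and 295 CPM in stroke with isotype, a ratio of 1.01 (interval 0.910 to 1.11). Cav2, its partner in the same oligomers, stood at 262 and 232 CPM, a log2 ratio of -0.18 (-0.34 to -0.02). Cavin1, the coat protein needed for caveola formation, stood at 271 and 231 CPM, a log2 ratio of -0.23 (-0.39 to -0.08). Cav2 and Cavin1 were the 2 whose intervals lay below 0. Cavin2 stood at 480 and 507 CPM, Cavin3 at 123 and 132 CPM and Ehd2 at 114 and 115 CPM, each with an interval that held 0. Without sub-clusters 11 and 12 the log2 ratio of Cav2 was -0.15 (-0.31 to 0.0083), that of Cavin1 -0.19 (-0.35 to -0.04) and that of Cavin2 0.11 (0.0035 to 0.23). None of the 6 measurable genes passed 1.5-fold with an interval away from 0, where 4.45% of the 8894 genes with at least 50 UMIs did. The median log2 ratio of the 6 was 0.01, beside -0.04 over all genes.

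**Figure D1:**
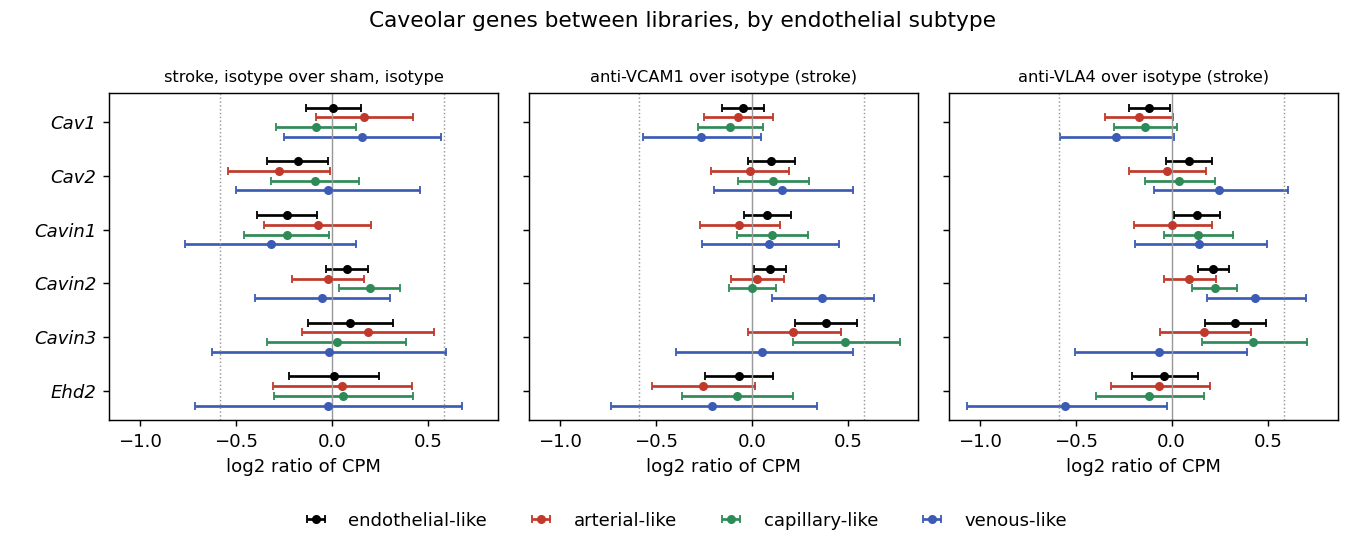
Log2 ratio of CPM between libraries (x axis) for 6 caveolar genes (y axis) in all endothelial-like cells and in each subtype, with 95% counting intervals; dotted lines mark 1.5-fold. No point passes a dotted line, and the intervals of Cavin3 in all endothelial-like and capillary-like cells and of Cavin2 in all endothelial-like and venous-like cells lie to the right of 0 in both blockade comparisons.

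With anti-VCAM1, Cavin3 and Cavin2 were the genes whose intervals left 0, both higher than in stroke with isotype. Cavin3, a cavin that joins caveolae and binds protein kinase C, went from 132 CPM to 172 CPM, 1.31-fold (1.17 to 1.46). Cavin2, a phosphatidylserine-binding cavin, went from 507 to 540 CPM, a log2 ratio of 0.09 (0.01 to 0.18). Cav1 stood at 286 CPM, Cav2 at 248, Cavin1 at 244 and Ehd2 at 110, with log2 ratios from -0.07 to 0.10 and intervals that held 0. Without sub-clusters 11 and 12 the log2 ratio of Cavin3 was 0.36 (0.20 to 0.53), and that of Cavin2 was 0.06 (-0.02 to 0.15). None of the 6 was called, beside 7.11% of 10482 genes. Their median log2 ratio was 0.09, beside -0.05 over all genes.

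With anti-VLA4, the same 2 cavins were higher, and 4 intervals left 0. Cavin2 reached 589 CPM from 507 CPM, 1.16-fold (1.10 to 1.23). Cavin3 reached 165 CPM from 132 CPM, 1.26-fold (1.13 to 1.40). Cavin1 reached 253 CPM, a log2 ratio of 0.13 (0.01 to 0.25), and Cav1 stood at 273 CPM, a log2 ratio of -0.12 (-0.22 to -0.01). Cav2 stood at 247 and Ehd2 at 112 CPM, with intervals that held 0. Without sub-clusters 11 and 12 the log2 ratios were 0.19 (0.11 to 0.27) for Cavin2, 0.31 (0.15 to 0.47) for Cavin3, 0.10 (-0.02 to 0.22) for Cavin1 and -0.14 (-0.25 to -0.04) for Cav1. None of the 6 was called, beside 8.44% of 10823 genes, and the median log2 ratio was 0.11, beside -0.07 over all genes. Both blockade comparisons share the stroke isotype library. TMM scaling (edgeR) added 0.13 with anti-VCAM1 and 0.15 with anti-VLA4 to every log2 ratio, which turned Cav1 with anti-VLA4 to 0.03. It also moved the share of called genes that were higher from 20.1% to 55.1% and from 19.3% to 57.6%.

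Cavin3 was higher in arterial-like than in capillary-like cells, with a wide spread among the sub-clusters of each. In arterial-like cells it stood at 161, 183, 213 and 207 CPM in the 4 libraries in the order above, and in capillary-like cells at 92.9, 94.5, 133 and 127 CPM. Arterial-like cells were the higher in all 4 libraries, 1.60-fold to 1.93-fold. Venous-like cells lay between them in all 4, at 154, 152, 158 and 145 CPM. With libraries summed, Cavin3 stood at 166, 280 and 187 CPM in arterial-like sub-clusters 1, 3 and 7. In capillary-like sub-clusters 0, 2, 4 and 5 it stood at 204, 107, 64.5 and 114 CPM. The part of this spread in the subtype difference was not tested. Ehd2 was also higher in arterial-like cells, at 153, 159, 133 and 152 CPM against 91.4, 95.2, 90.2 and 87.7 CPM, 1.47-fold to 1.73-fold, which missed 1.5-fold in the anti-VCAM1 library alone. Cavin3 was thus the 1 of 6 genes called arterial over capillary, where 1.95% of 9168 genes were called higher and 1.27% lower. The subtypes were clustered from these cells, so the difference is a description with no test. At clustering resolution 0.5 no gene was called, with Cavin3 at 1.29-fold to 1.65-fold, and with cells thinned or named on their own markers Ehd2 was called in place of Cavin3.

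**Figure D2:**
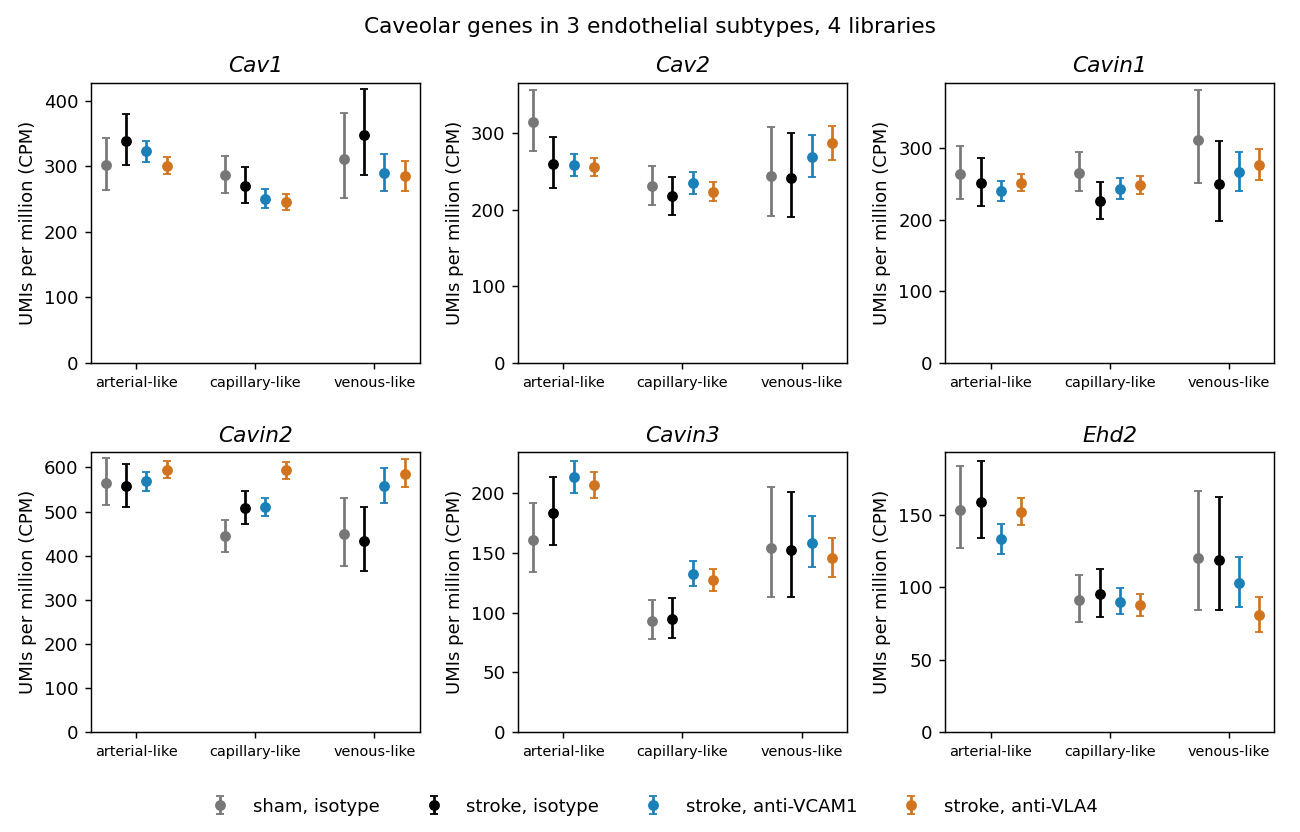
CPM (y axis) of 6 caveolar genes in arterial-like, capillary-like and venous-like cells (x axis), 1 point per library with its 95% Poisson interval. Cavin3 and Ehd2 stand higher in arterial-like than in capillary-like cells in every library, while Cavin1 stands at similar levels in the 3 subtypes.

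The other 4 caveolar genes differed little between subtypes. Cav1 was 1.05-fold to 1.29-fold and Cav2 1.10-fold to 1.36-fold higher in arterial-like than in capillary-like cells, in 4 of 4 libraries each. Cavin1 was 0.987-fold to 1.11-fold, above 1 in 2 of 4. Cavin2 was 1.00-fold to 1.27-fold. No gene was called venous over capillary, where 0.363% of genes were higher and 0.872% lower, or arterial over venous, where 2.2% were higher and 1.06% lower.

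In the 3 subtypes no gene was called between libraries. The background was 5.27%, 5.62% and 5.77% of genes in arterial-like cells for stroke, anti-VCAM1 and anti-VLA4, 5.01%, 9.94% and 12.4% in capillary-like cells, and 11.5%, 12.3% and 11.9% in venous-like cells. Cavin2 in venous-like cells went from 433 CPM in stroke with isotype to 558 and 586 CPM under the blockades, 1.29-fold and 1.35-fold, with sham at 449 CPM. Ehd2 in venous-like cells stood at 121, 119, 103 and 80.6 CPM, and the last was 0.681-fold of stroke with isotype (0.477 to 0.985, from 39 and 178 UMIs). The sub-cluster mix of venous-like cells differed between libraries as described above, and its part in these 2 values was not tested. Inside sub-cluster 6 Ehd2 stood at 130 CPM in stroke with isotype and 82.9 CPM with anti-VLA4, from 24 and 153 UMIs. Inside sub-cluster 10 it stood at 105 and 69.2 CPM, from 15 and 25 UMIs.

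Smaller sets of cells gave a few calls. Over 9 sub-clusters, 5 of 149 measurable ratios were called, listed here because of their values. The share of all genes called is given only for the comparisons with such a call. It ran from 4.92% to 16.3%, and 5 of 149 is a smaller share than any of these. Cav1 in arterial-like sub-cluster 7 stood at 193 CPM in sham and 357 CPM in stroke with isotype, 1.84-fold (1.29 to 2.69, from 42 and 117 UMIs), where 7.06% of genes were called. In the same sub-cluster Cavin3 stood at 131 CPM in stroke with isotype and 206 CPM with anti-VLA4, 1.57-fold (1.14 to 2.22), where 8.82% were. Cav1 in capillary-like sub-cluster 5 stood at 283 CPM in stroke with isotype and 180 CPM with anti-VCAM1, a ratio of 0.638 (0.478 to 0.854), where 4.92% were. In venous-like sub-cluster 10 Cav1 stood at 446 CPM in stroke with isotype and 296 CPM with anti-VLA4, a ratio of 0.665 (0.483 to 0.920), where 12% were. The fifth was Cavin2 in sub-cluster 0, at 1840 CPM in sham from 30 UMIs of 6 cells and 419 CPM in stroke with isotype, where 16.3% were. Cav1 thus stood higher in 1 of these calls and lower in the other two.

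For Cavin3 under the blockades the interval left 0 in the capillary-like cells and held 0 in the other subtypes, a difference between subtypes that was not tested. Over stroke with isotype it was 1.40-fold with anti-VCAM1 (1.16 to 1.71) and 1.34-fold with anti-VLA4 (1.12 to 1.63) in capillary-like cells, against 1.16-fold and 1.13-fold in arterial-like cells. Capillary-like sub-cluster 0, low in the nuclear RNA Malat1 (0.334% of UMIs, against 1.89% to 3.17% in sub-clusters 2, 4 and 5), had 204 CPM of Cavin3. It made up 1.09% of endothelial-like cells in sham and 4.78% in stroke with isotype, but 15.9% and 16.8% under the blockades. Sub-cluster 4, the lowest of these 4 in Cavin3 at 64.5 CPM, made up 30.4% and 23.8%, but 9.34% and 7.67% under the blockades. Inside the capillary-like sub-clusters the 4 libraries did not move one way. Cavin3 stood at 123, 144, 207 and 205 CPM in sub-cluster 0, the first 2 from 2 and 12 UMIs. It stood at 105, 108, 111 and 105 CPM in sub-cluster 2 and at 65.3, 57.8, 67.5 and 65.6 CPM in sub-cluster 4. In sub-cluster 5 it was lower under the blockades, at 137, 134, 120 and 93.0 CPM, with ratios to stroke with isotype whose intervals held 0. In capillary-like cells other than sub-cluster 0 the log2 ratios of Cavin3 were 0.17 (-0.14 to 0.48) and 0.05 (-0.25 to 0.35). In all endothelial-like cells without sub-clusters 0, 8 and 12, the last 2 unnamed and also low in Malat1, they were 0.35 and 0.29. Arterial-like sub-cluster 3 stayed in that set, with Malat1 at 1.01% of UMIs and Cavin3 at 280 CPM. It made up 3.46%, 5.71%, 12.9% and 13.6% of endothelial-like cells in the 4 libraries, and its part in these values was not tested. Arterial-like cells, higher in Cavin3, had made up 23.3%, 24.1%, 33.1% and 34.2% of endothelial-like cells. A mean of the subtype ratios at equal weight was among the planned settings, and no caveolar gene was called under it. The part of these shares in the size of the ratio was not tested. Cavin3 is also short, 2.22 kb from start to end, and with the trend of log2 ratios on gene span removed its endothelial-like values were 0.15 and 0.12.

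**Figure D3:**
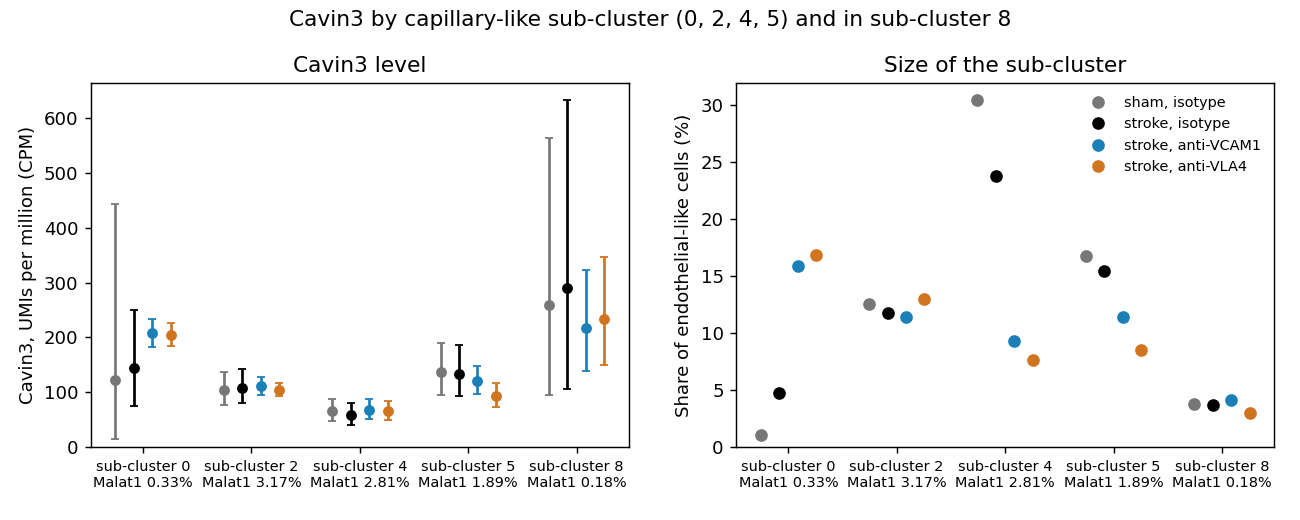
Left: Cavin3 CPM (y axis) with 95% Poisson intervals in 5 endothelial sub-clusters, 1 point per library; right: share of endothelial-like cells (%) in each sub-cluster. Sub-cluster 0, with little Malat1, made up 4.78% in stroke with isotype and 15.9% and 16.8% under the blockades. The Cavin3 intervals of the 4 libraries overlap inside each of the 5 sub-clusters.

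Plvap was nearly absent from these vessels. Only 16 Plvap UMIs occurred in the 6626 endothelial-like cells, and 14 of these lay in 2 cells of stroke with isotype. Sham and anti-VCAM1 had 0 UMIs in 549 and 2377 cells, which allows levels of up to 1.19 and 0.262 CPM by a limit of 3 UMIs (1.46 and 0.322 CPM by the Poisson interval), and anti-VLA4 had 2. Stroke with isotype stood at 4.87 CPM (2.66 to 8.17), above those limits. Without the cell with most UMIs it stood at 1.39 CPM, from 4 UMIs of 1 cell, which is within the Poisson limit of sham. That level is above the limit of 3 UMIs for sham and above both limits of anti-VCAM1. The UMIs of 1 cell are not independent, so the 4.87 CPM stand for 2 cells among 648. With cells named one by one on their own markers, the endothelial level over all libraries was 0.033 CPM in place of 0.489. Microglia-like cells, which should lack Plvap, had 20 UMIs in 6446 cells, 0.528 CPM, which is no lower than that endothelial level.

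Both Plvap cells of stroke with isotype belonged to arterial-like sub-cluster 3 and are described here after their Plvap counts were seen. The cell with 10 Plvap UMIs held 2654 UMIs, with 8 of Pecam1 and 8 of Kdr (endothelial genes), 3 of Esm1 (a tip-cell gene) and none of Cldn5, Slco1a4, Slc2a1 or Mfsd2a, which mark the barrier. The cell with 4 Plvap UMIs held 4464 UMIs, with 5 of Cldn5, 6 of the water channel gene Aqp1 and none of Slco1a4, Slc2a1 or Mfsd2a. In the same library 96.5% of endothelial-like cells had Cldn5, 95.2% Slco1a4 and 93.2% Slc2a1, and 54.5% had Mfsd2a, while 0.154% had Esm1 and 0.154% Aqp1, 1 cell each. Neither cell held more than 1 Cav1 UMI. Of the 2 anti-VLA4 cells with 1 Plvap UMI each, the one in sub-cluster 3 also had none of Cldn5, Slco1a4, Slc2a1 or Mfsd2a, while the one in sub-cluster 6 had 22 UMIs of Cldn5 and 15 of Slco1a4.

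Of the mural cells, pericyte-like cells were few, 9, 12, 49 and 89, and no cluster was named smooth muscle. Over all libraries these 159 cells had Cav1 at 144 CPM, endothelial-like cells being 1.95-fold higher. Cav2, Cavin1, Cavin2 and Cavin3 were likewise 1.66-fold to 2.32-fold lower than in endothelial-like cells, so 5 genes were called lower, where 11.4% of genes were, and Plvap had no UMI. At clustering resolution 0.5 (390 cells) or with cells named one by one (340 cells) no gene was called lower. Ehd2 stood at 113 CPM against 112 CPM, a ratio of 1.01 (0.827 to 1.21). Yet endothelial markers summed to 3424, 8565, 20572 and 21162 CPM in the pericyte-like cells of the 4 libraries, 47.4% of the endothelial-like level with libraries summed. Cav1 stood at 36.0, 107, 140 and 155 CPM there, in the same order, and the part of those markers in it was not tested. Between libraries the pericyte-like cells gave 2 calls in 8 measurable ratios. Cavin2 stood at 72.1 CPM in sham and 17.8 CPM in stroke with isotype, from 2 and 1 UMIs, and at 236 and 311 CPM under the blockades. These are ratios of 12.6 (2.31 to 531) and 16.6 (3.10 to 693), where 26.5% and 19.3% of genes were called.

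In the 89 pericyte-like cells with endothelial markers under 0.5% of their UMIs the gap was wider. These were 8, 10, 26 and 45 cells of the 4 libraries, with a median of 2800 UMIs and pericyte markers at 33813 CPM, against 16181 CPM in the other 70. Those 70 had a median of 8662.5 UMIs and endothelial markers at 64.8% of the endothelial-like level. Cav1 had 6 UMIs there, 21.0 CPM (7.72 to 45.8), 13.4-fold below endothelial-like cells. Cavin2 had 5 UMIs, 31.7-fold below, and Cav2 6 UMIs, 11.8-fold below. Cavin1 and Cavin3 were 4.74-fold and 4.19-fold below. Ehd2 kept 105 CPM (71.0 to 150), 0.940-fold of the endothelial level, and was the 1 gene not called lower, where 13.5% of genes were. The split was chosen after the data were seen. It selects cells with few endothelial UMIs, so a wider gap for genes high in endothelial-like cells is partly built in.

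**Figure D4:**
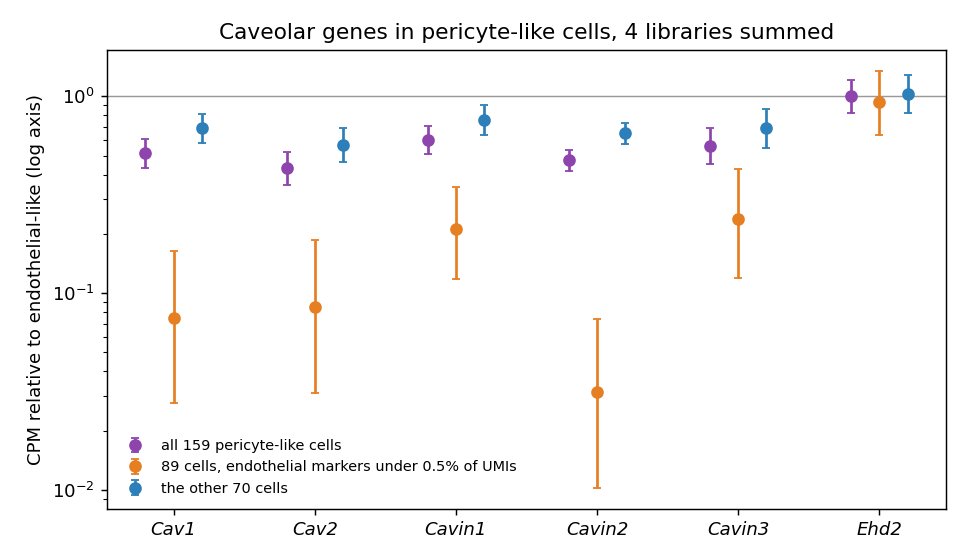
CPM of 6 caveolar genes in pericyte-like cells relative to endothelial-like cells (y axis, log), 4 libraries summed, with 95% counting intervals, for all 159 cells, the 89 with few endothelial UMIs and the other 70. Cav1, Cav2, Cavin1, Cavin2 and Cavin3 lie lowest in the 89 cells, and Ehd2 lies at 1 in all 3 sets.

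Genes that work with caveolae did not pass 1.5-fold either. Of 14 caveola partners, 10 were measurable after stroke and 11 under each blockade, and none was called in any comparison, where 4.45%, 7.11% and 8.44% of all genes were. Nostrin, a trafficking protein of endothelial nitric oxide synthase, stood at 805, 876, 920 and 960 CPM. Nos3, the synthase itself, stood at 236, 224, 189 and 180 CPM, log2 ratios of -0.24 and -0.31 under the blockades. Dnm2, the dynamin that cuts vesicles free, stood at 239, 226, 201 and 193 CPM. Pacsin2, a membrane-bending protein of caveolae, had log2 ratios of -0.27 and -0.32. Ehd4 had -0.20 after stroke, and Ehd1 and Flot1 had 0.31 and 0.32 with anti-VCAM1. The median log2 ratio of the list was -0.07, -0.15 and -0.04 in the 3 comparisons.

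Of the receptors of transcytosis, Tfrc and Insr were the furthest below stroke with isotype under the blockades at 200 UMIs or more, without passing 1.5-fold. Of 14 receptors and regulators, 9 were measurable after stroke and 11 under each blockade, and 1 was called, Lrp1 with anti-VLA4, lower on 62 UMIs, a share near the 8.44% of all genes. Mfsd2a, the lipid transporter that holds caveolar transcytosis low at the barrier, stood at 299, 311, 349 and 362 CPM. By subtype Mfsd2a was lower in arterial-like cells, at 259, 288, 314 and 355 CPM against 338, 336, 381 and 388 CPM in capillary-like cells, in 4 of 4 libraries. Tfrc, the transferrin receptor, stood at 290, 294, 222 and 197 CPM, log2 ratios of -0.40 (-0.52 to -0.29) and -0.57 (-0.69 to -0.46). Insr, the insulin receptor, stood at 401, 342, 249 and 253 CPM, and Igf1r had log2 ratios of -0.34 after stroke and -0.33 with anti-VLA4. Scarb1 had a log2 ratio of -0.25 after stroke. The list's median log2 ratio was -0.05, -0.27 and -0.23.

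The clathrin route and the endosomes gave no called gene among 14 and 13, beside the same shares of all genes (4.45%, 7.11% and 8.44%). Hip1, an adaptor of clathrin coats, stood at 964, 758, 577 and 595 CPM. Epn1, another coat adaptor, went from 48.7 CPM in stroke with isotype to 64.7 and 63.5 CPM, with intervals above 0. Clta had a log2 ratio of 0.31 after stroke, Eps15 -0.25 after stroke and -0.47 with anti-VCAM1, and Ap2b1 -0.42 with anti-VLA4. Rab11a, the GTPase of recycling endosomes, stood at 220 CPM in stroke with isotype and at 272 and 263 CPM under the blockades. Rab11fip5 stood at 42.8 CPM there and at 30.02 CPM with anti-VLA4. Eea1, Rab5b and Rab4a had log2 ratios of -0.23 and -0.28 after stroke and 0.29 with anti-VLA4. The clathrin list had medians of 0.01, -0.10 and -0.17, and the endosome list 0.06, 0.04 and 0.02.

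Over the 12 sums of subtype and library, the 5 genes most like Cav1 among 3838 were Hyal2 (Pearson r = 0.93), Tpd52l1 (0.90), Tes (0.86), Plec (0.84) and H2-Q7 (0.80). Hyal2 averaged 67.7 CPM in arterial-like, 41.4 in capillary-like and 63.7 in venous-like sums. The other caveolar genes followed Cav1 less closely, from 0.71 for Ehd2 to -0.25 for Cavin2. The 12 sums share libraries and differ in depth. For Plvap 3 of 12 sums held a UMI, and the 5 most like genes, Pak2, Bms1, Gbp2, Vcp and Fam129b (0.85 to 0.73), rest on 1 of them.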

How the data were processed

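The 4 deposited matrices held raw UMI counts per gene and barcode, and the file headers name Cell Ranger 7.0.1. The submitters' processing notes name Cell Ranger 6.0.0, Seurat 4.3.0.1 and the builds mm10 and GRCh38, without roles. Whether intronic reads were counted is not given in the sources used here. Barcodes had been called before deposit (smallest total 500 to 510 UMIs). Library totals were 10008987, 17130182, 25099141 and 34721356 UMIs.

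Analysis software was Python 3.11.15, scanpy 1.11.5, leidenalg 0.10.2, scipy 1.17.1, statsmodels 0.14.6, R 4.3.3 and edgeR 4.0.16 (TMM factors only). Cells had at least 500 UMIs, 200 genes and at most 10% mitochondrial UMIs. Scrublet marked 11, 24, 63 and 124 cells, which were left out. Clustering used 2000 variable genes, 30 components, 15 neighbours and resolution 1, without 186 genes (the members, the partner lists, mitochondrial, ribosomal and haemoglobin genes, and Vcam1, Itga4 and Itgb1). Endothelial-like cells were clustered again. A cluster was named when at least 3 markers were detected in 25% of cells at a log2 fold of 1 (0.5 for subtypes). It stayed unnamed when another class had as many markers in its top 10 genes, or 5 detected markers. These naming rules were settled after the clusters were seen. Sub-clusters 8, 9, 11 and 12 stayed unnamed, as did cluster 12 of all cells (2, 11, 134 and 199 cells with endothelial and pericyte markers).

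Within each library the UMIs of a class were added up and expressed as CPM, with exact Poisson intervals. Log2 ratios used a pseudocount of 1 CPM, with conditional binomial intervals computed without it, all at 95% and for counting error only. Shares have exact Clopper-Pearson intervals. A gene was called at 1.5-fold with an interval off 0 and at least 50 UMIs, and between subtypes at 1.5-fold in 4 of 4 libraries with at least 200 UMIs. The calling step was tested on simulated sums with counting error only, which hold no variation between cells or mice. Named genes were the 7 members, up to 3 per list and comparison with the largest ratio at 200 UMIs or more, and the 5 most like Cav1 and Plvap at a mean of at least 50 CPM. One gene that this rule names is not reported here. Other genes named were chosen after their values were seen. Members and lists were chosen with earlier results of these data known.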

Additional observations from a re-analysis of the deposited data

How the results depend on the processing

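No paired analysis was possible because each group is 1 library. None of the 3 endothelial comparisons gained or lost a call among the caveolar genes under 13 planned and 3 added settings each. Of 288 recomputed member ratios 258 stayed within the reported 95% interval. A minimum of 200 UMIs per gene was among these settings and left each member ratio as reported by construction. The sign differed from the reported value in 17, the largest of them 0.11 in size, and in 3 of these the reported interval had left 0. Of these 3, Cav2 after stroke came to 0.049 with cells thinned to 1000 UMIs. Cavin2 with anti-VCAM1 came to -0.0087 in capillary-like cells other than sub-cluster 0, and Cav1 with anti-VLA4 to 0.032 under TMM scaling. The largest absolute log2 ratio over all settings was 0.52, Cavin3 with anti-VCAM1 under TMM scaling. The number of genes called arterial over capillary went from 1 to 0 at clustering resolution 0.5 and 0 at 2-fold. It stayed 1 with cells thinned or named on their own markers, but the gene was then Ehd2 and not Cavin3. Genes called lower in pericyte-like than in endothelial-like cells went from 5 to 0 at resolution 0.5, to 0 when cells were named one by one, and to 3 with doublets kept. The pericyte-like class held 390 cells at resolution 0.5 and 340 when cells were named one by one, against 159 as reported. The part of endothelial markers in these changes was not tested. The 3 added settings and the split of pericyte-like cells were chosen after seeing the data. Over all genes, a minimum of 200 UMIs in place of 50 left 1.46%, 5.01% and 6.43% called. Pericyte-like values in sham and stroke with isotype rest on 1 to 6 UMIs per caveolar gene.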

Other observations

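Caveolar genes also gave UMIs in the astrocyte-like cells, 102 cells with a median depth of 2723 UMIs. Cav2 stood at 90.4 CPM there, Cavin2 at 88.2, Cavin3 at 79.1, Cavin1 at 54.3 and Ehd2 at 31.6. Cav1 had a UMI in 16 of the 102 cells, and 82.9% of its UMIs there lay in 10 cells. The part of endothelial RNA in these values was not tested. Of the leukocytes, border macrophage-like cells had Cav2 at 14.4 CPM (10.6 to 19.2) and Cavin2 at 11.9 CPM (8.43 to 16.3), from 46 and 38 UMIs in 474 cells, while dendritic-like cells had Cav2 at 15.0 CPM and 0 UMIs of Cavin2. By library, in the order above, Cav2 in border macrophage-like cells stood at 9.05, 7.55, 18.6 and 36.3 CPM. Cav1 stood at 0, 0, 4.64 and 21.8 CPM in them, and the part of endothelial RNA in these values was not tested.

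The unnamed cluster with both endothelial and pericyte markers held 346 cells, 333 of them from the 2 blockade libraries. It had Cav1 at 247 CPM, Cavin1 at 269, Cavin2 at 512, Cavin3 at 177 and Ehd2 at 116 CPM, and no Plvap UMI. In 52 cells named smooth muscle on their own markers Cavin3 stood at 282 CPM from 111 UMIs, Cav1 at 327 and Ehd2 at 162 CPM.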
